A study of Mus musculus with 3 samples.

Results

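The genes described here are 9 that cells switch on within minutes of being disturbed, and whose mRNA is often raised when a tissue is cut and digested into single cells. They were chosen by name and by no cutoff on a measured value, but with earlier results of these data known. The 7 immediate-early members are *Fos*, *Fosb*, *Jun*, *Junb*, *Egr1*, *Atf3* and *Ier2*, and the 2 heat-shock members are *Hspa1a* and *Hspa1b*, out of 32285 genes in the deposited count matrices. All 9 were found under these symbols. The question was how far their levels differ between the 3 skin libraries of the study, as a measure of stress that could have been added by handling.

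The 3 libraries were made from the dorsal skin of female C3H/HeN mice aged 25 weeks, and each pools 7 to 8 mice. Neg comes from unaffected mice and is labelled a vehicle control, AA from mice in which alopecia areata (AA), an autoimmune hair loss, had been induced by intradermal transfer of cultured lymph node cells of affected mice, and AA+Ab from AA model mice given an antibody that neutralizes the chemokine CXCL12. The skin of every group was minced and digested in collagenase D at 0.7 mg/mL and 37 °C for 1 h, passed through meshes of 70 and 40 µm, treated to lyse red blood cells, and cleaned on a Percoll gradient before 3′ droplet capture. The order and the day on which the 3 groups were processed, and the dose and timing of the antibody, are not given in the sources used here, and no undissociated skin was measured. With 1 library per group there is no replicate check and no test, so disease, treatment, the pool of mice and handling cannot be told apart in any difference below.

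Immediate-early genes are transcribed from factors that already sit in the cell, so their mRNA appears without new protein synthesis after growth factors, wounding, stretch or enzyme treatment, and it is also short-lived. *Fos*, *Fosb*, *Jun*, *Junb* and *Atf3* encode leucine zipper proteins that pair to form the AP-1 family of transcription factors, *Egr1* encodes a zinc finger factor, and *Ier2* a small nuclear protein. *Hspa1a* and *Hspa1b* encode the inducible HSP70 chaperones, which bind unfolded proteins, and both are driven by heat-shock factor 1 through short repeats called heat-shock elements. In skin, AP-1 factors also act in wound repair and in keratinocyte differentiation, so their mRNA need not come from handling.

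The promoters of 4 members are shown. These are *Hspa1a* and *Hspa1b*, which carried the largest difference between libraries, and *Fos* and *Atf3* from the immediate-early group. The sequences are RefSeq's on GRCm38.p6, from 250 bases before to 50 after a RefSeq start site, 5′ to 3′ on the gene's strand, at chr12:85473640-85473939, plus strand for *Fos*, chr1:191183284-191183583, minus strand for *Atf3*, chr17:34972107-34972406, minus strand for *Hspa1a* and chr17:34959189-34959488, minus strand for *Hspa1b*. For *Atf3* this start site lies inside the gene as GENCODE vM21 places it (chr1:191170296-191218039), and not at its 5′ end. Capitals mark matches, on either strand, to the core of the cAMP response element (TGACGT), the AP-1 site (TGANTCA), a pair of heat-shock units (GAANNTTC or TTCNNGAA), the TATA box (TATAAA) and the CArG box, none of which overlapped another here.
Fos: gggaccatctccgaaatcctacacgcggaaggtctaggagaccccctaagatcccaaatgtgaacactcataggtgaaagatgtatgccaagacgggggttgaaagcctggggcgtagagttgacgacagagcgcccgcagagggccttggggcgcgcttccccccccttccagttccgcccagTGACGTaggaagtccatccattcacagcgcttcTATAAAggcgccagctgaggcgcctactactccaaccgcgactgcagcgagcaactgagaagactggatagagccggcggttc
Atf3: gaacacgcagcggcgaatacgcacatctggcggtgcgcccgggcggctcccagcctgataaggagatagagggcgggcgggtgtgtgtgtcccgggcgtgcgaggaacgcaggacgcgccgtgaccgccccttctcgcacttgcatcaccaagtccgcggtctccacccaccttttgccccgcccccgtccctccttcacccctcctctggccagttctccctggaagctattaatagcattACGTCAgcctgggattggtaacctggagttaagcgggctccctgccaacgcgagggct
Hspa1a: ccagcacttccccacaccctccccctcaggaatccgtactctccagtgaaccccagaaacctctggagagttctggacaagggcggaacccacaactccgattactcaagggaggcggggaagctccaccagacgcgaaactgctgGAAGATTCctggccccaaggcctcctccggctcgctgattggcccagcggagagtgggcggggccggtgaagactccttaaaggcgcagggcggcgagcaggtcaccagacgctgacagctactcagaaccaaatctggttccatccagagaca
Hspa1b: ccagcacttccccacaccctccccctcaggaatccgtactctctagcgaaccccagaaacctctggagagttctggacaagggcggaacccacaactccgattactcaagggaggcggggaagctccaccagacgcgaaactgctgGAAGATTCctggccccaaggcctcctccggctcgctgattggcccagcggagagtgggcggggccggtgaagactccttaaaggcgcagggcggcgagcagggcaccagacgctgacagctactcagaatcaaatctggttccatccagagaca

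Both heat-shock promoters held a pair of heat-shock units 104 to 97 bases before the start, and the 2 stretches differed at 4 of 300 bases. *Fos* held the cAMP response element core 66 to 61 bases before its start and a TATA box 33 to 28 bases before it, and *Atf3* held the cAMP response element core 8 to 3 bases before its start. Of the other members in the table, *Jun* had a pair of heat-shock units and *Junb* a TATA box, and *Fosb* had no match. *Egr1* and *Ier2* had no entry, so 7 of the 9 members were matched. Among 32817 promoters of the same length, 7.51% held the cAMP response element core, 7.81% the AP-1 site, 7.86% and 8.51% the pair of heat-shock units in its 2 orientations, 13.6% the TATA box and 1.63% the CArG box. A match describes letters in this window and not a site that was measured.

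The libraries held 6965, 10879 and 10507 barcodes in Neg, AA and AA+Ab. Cells with over 10% mitochondrial UMIs (unique molecular identifiers, which count captured mRNA molecules) or under 200 genes were removed, which left 6582, 10433 and 9832 cells with 119193310, 135609481 and 139663314 UMIs. The median cell had 13694.5 UMIs in Neg, 11177 in AA and 11371 in AA+Ab, and 2.35%, 2.17% and 1.81% mitochondrial UMIs. Keratinocyte-like cells made up 86.5% to 89.6% of the cells of this skin. The rest were T-cell-like, fibroblast-like, muscle-like, melanocyte-like and other immune-like cells, and cells of unnamed clusters. The unnamed cells made up 5.04% of Neg, 1.33% of AA and 1.96% of AA+Ab. Their median depths were 640.5, 3339 and 1475 UMIs, so in Neg they were very shallow. Libraries shared at most 23 barcodes among kept cells (0.243% of a library or less).

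The members were among the abundant mRNAs of all 3 libraries. The 7 immediate-early members together took 11220 CPM (UMIs of a gene per 1000000 UMIs of the same cells) in Neg, 13201 in AA and 11653 in AA+Ab, so AA was highest and Neg and AA+Ab lay close together. The 2 heat-shock members together took 1044.3 CPM in Neg, 885.8 in AA and 481.7 in AA+Ab, so here AA+Ab stood apart at the low end. The AA sum of the immediate-early members was 1.18 times that of Neg (95% interval 1.17 to 1.18), that of AA+Ab was 1.04 times Neg (1.04 to 1.04) and 0.883 times AA (0.881 to 0.885). The heat-shock sum of AA was 0.848 times that of Neg (0.841 to 0.855), that of AA+Ab was 0.461 times Neg (0.457 to 0.466) and 0.544 times AA (0.539 to 0.549). All intervals here are exact and cover counting error only, and they treat UMIs as independent, so they are narrow and say nothing of the spread between mice, pools or captures. The 3 comparisons share libraries and are not independent of each other.

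**Figure D1:**
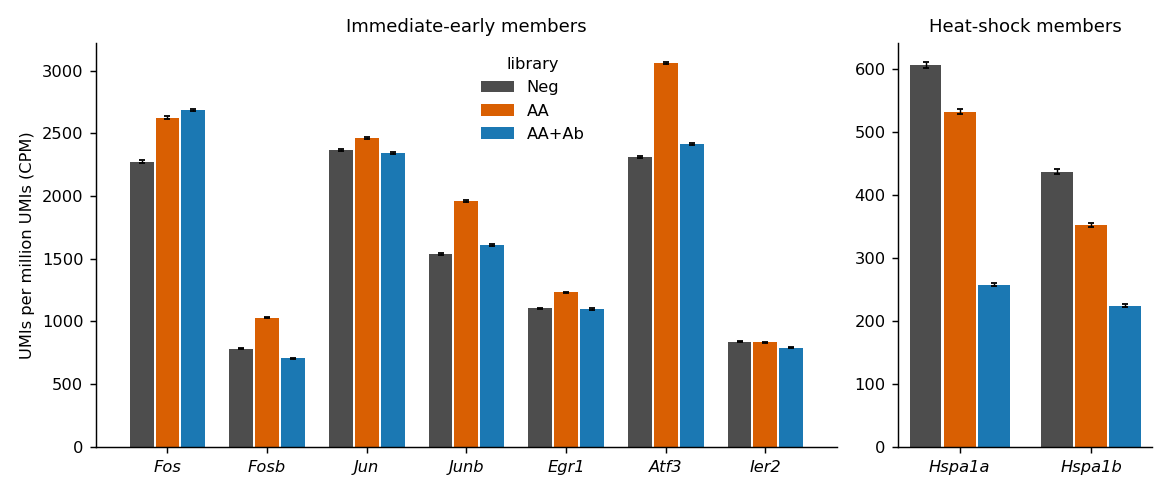
Level of each member in the 3 libraries, in CPM over kept cells, with bars for the libraries and black lines for exact 95% counting intervals, and with a separate axis for the heat-shock members. *Atf3* reaches 3059.1 CPM in AA against 2310.6 in Neg, and *Hspa1a* is at 607.0, 532.6 and 257.5 CPM in Neg, AA and AA+Ab.

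Among the Fos proteins, *Fos* was at 2274.6 CPM in Neg, 2625.0 in AA and 2686.6 in AA+Ab. It was the only member that was higher in AA+Ab than in AA, by 1.02 times. *Fosb* was at 782.8 CPM in Neg, 1031.0 in AA and 706.5 in AA+Ab, with AA highest. On the log2 scale of CPM ratios, *Fosb* was 0.40 above Neg in AA (0.39 to 0.41) and 0.55 lower in AA+Ab than in AA, at -0.55 (-0.56 to -0.53), the largest gap of an immediate-early member. In GRCm38 with the GENCODE vM21 genes, *Fos* lies at chr12:85473890-85477273 on the plus strand and *Fosb* at chr7:19302696-19310051 on the minus strand, each with 4 exons in its longest coding transcript.

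Among the Jun proteins, *Jun* was at 2369.3, 2458.8 and 2343.9 CPM in Neg, AA and AA+Ab, with log2 ratios of 0.05 for AA over Neg, -0.02 for AA+Ab over Neg and -0.07 for AA+Ab over AA. *Junb* was at 1538.2, 1959.7 and 1609.6 CPM, again highest in AA, with log2 ratios of 0.35 for AA over Neg, 0.07 for AA+Ab over Neg and -0.28 for AA+Ab over AA. Both are genes of 1 exon, *Jun* at chr4:95049034-95052222 and *Junb* at chr8:84974484-84978718, both on the minus strand. The annotation places *Junos* on the opposite strand of *Jun* and *Prdx2* on the opposite strand of *Junb*.

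*Atf3*, which AP-1 and stress kinases induce and which represses inflammatory genes, had the highest level of all members in AA. Its CPM was 2310.6 in Neg, 3059.1 in AA and 2416.9 in AA+Ab, with log2 ratios of 0.40, 0.06 and -0.34 in the same order of comparisons. The second of these turned to -0.05 when each cell weighed the same or was thinned. *Egr1* was at 1104.4, 1232.7 and 1100.1 CPM, so that Neg and AA+Ab did not differ beyond counting error, with a ratio of 0.996 (0.989 to 1). *Ier2* was at 839.7, 834.8 and 789.2 CPM, and its AA over Neg ratio of 0.994 had an interval of 0.986 to 1. *Atf3* lies at chr1:191170296-191218039 on the minus strand with 4 exons, *Egr1* at chr18:34859823-34864984 on the plus strand with 2 exons, and *Ier2* at chr8:84661331-84662852 on the minus strand with 1 exon.

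The heat-shock members moved together. *Hspa1a* was at 607.0 CPM in Neg, 532.6 in AA and 257.5 in AA+Ab, which gives 0.877 times for AA over Neg, 0.424 for AA+Ab over Neg (0.419 to 0.43) and 0.483 for AA+Ab over AA (0.477 to 0.49). *Hspa1b* was at 437.3, 353.2 and 224.2 CPM, which gives 0.808, 0.513 (0.506 to 0.52) and 0.635 (0.626 to 0.644). For both genes the order was Neg, then AA, then AA+Ab, and the step to AA+Ab was the larger one. The genes are neighbours of 1 exon each on the minus strand, *Hspa1a* at chr17:34969190-34972156 and *Hspa1b* at chr17:34956436-34959238. Their transcripts share 58.8% of the 50-base windows of *Hspa1a*, but none of the 451 windows in the last 500 bases of either, where 3′ reads mostly fall, was found in the other. Reads that fall in the shared windows farther upstream cannot be told apart, so single values of the pair are less certain than their sum. The UMIs of *Hspa1a* per UMI of *Hspa1b* were 1.39 in Neg, 1.51 in AA and 1.15 in AA+Ab, and AA+Ab was below AA in 25 of 26 clusters and below Neg in 22 of them.

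A fold of 2 was used to count genes, over all genes with at least 20 UMIs in a pair of libraries together. None of the 9 members passed it in AA against Neg, where 3.17% of genes were at least 2-fold higher and 3.71% lower. 1 member, *Hspa1a*, passed it downward in AA+Ab against Neg, where 2.03% of 19487 genes were higher and 3.64% lower, and *Hspa1b* was just inside at a log2 ratio of -0.96. The same gene alone passed it downward in AA+Ab against AA, where 2.58% were higher and 4.09% lower. By its size, the *Hspa1a* difference lay at the edge of the well counted genes. Of 4058 genes with at least 10000 UMIs in Neg and AA+Ab together, 0.0246% were lower than *Hspa1a* and 0.197% lower than *Hspa1b*. In AA+Ab against AA, 0.958% of 4281 such genes were lower than *Hspa1a* and 5% lower than *Hspa1b*. In AA against Neg, the heat-shock members lay at ordinary places, with 18.7% and 7.22% of 4070 genes lower. *Atf3* and *Fosb* lay near the upper end there, with 91.7% and 91.4% of genes lower, but 5% of these genes were above a log2 ratio of 0.51 and neither member was.

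**Figure D2:**
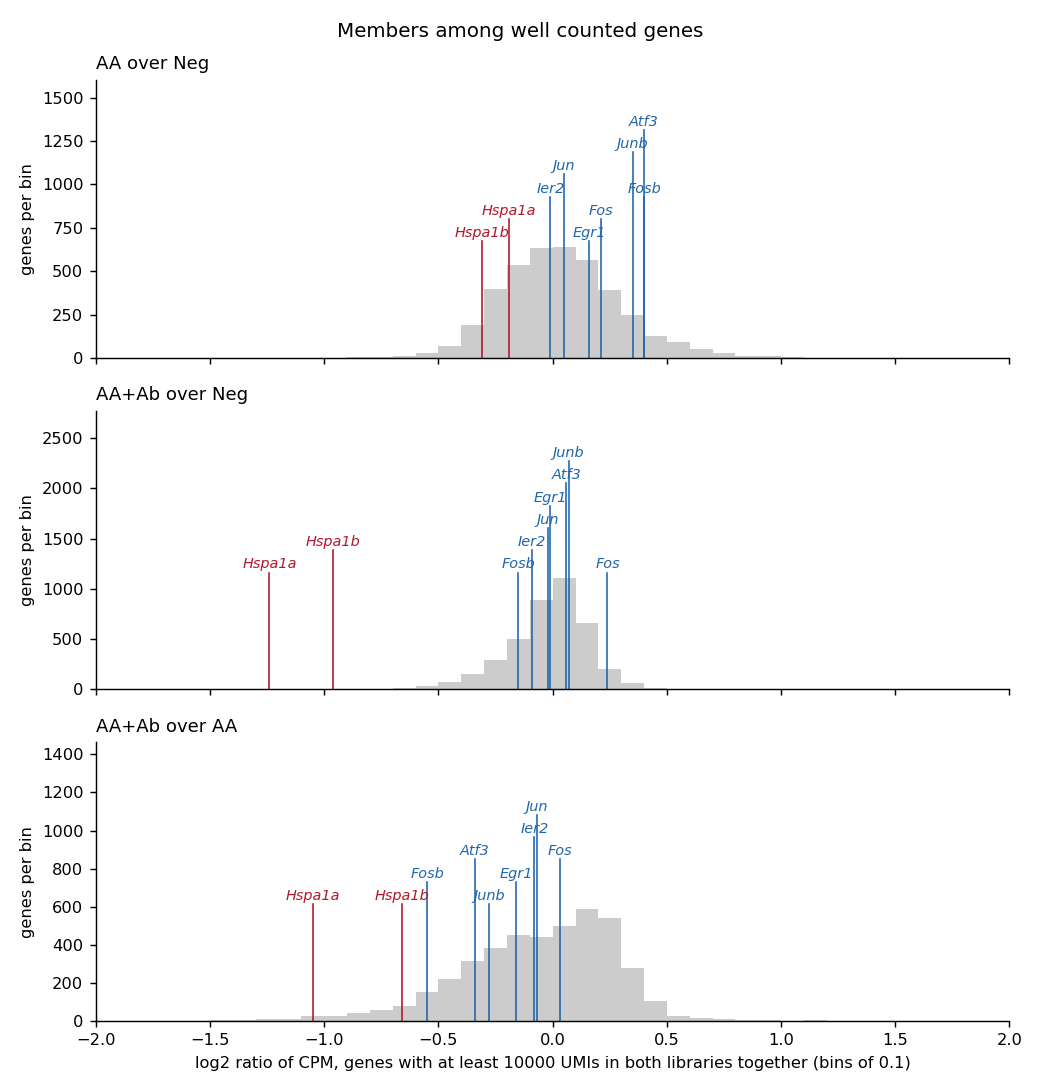
Number of genes in bins of 0.1 of the log2 ratio of CPM (grey), for genes with at least 10000 UMIs in both libraries of a pair together, with the immediate-early members in blue and the heat-shock members in red. In AA+Ab over Neg the heat-shock members lie at -1.24 and -0.96, and the immediate-early members between -0.15 and 0.24.

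The share of cells with a UMI follows depth, so it was also taken after every cell had been thinned to 1000 UMIs, which left out 290, 86 and 158 shallower cells in Neg, AA and AA+Ab. Before thinning, 90.3%, 83% and 78.2% of cells had a heat-shock UMI. After it, 45.9% of Neg cells (44.7% to 47.2%), 39.4% of AA cells (38.4% to 40.3%) and 29.1% of AA+Ab cells (28.2% to 30%) had 1. *Hspa1a* alone was found in 31.8%, 28.1% and 17.4% of thinned cells and *Hspa1b* in 29.1%, 23.6% and 18.1%. An immediate-early UMI was found in 92.9%, 94.9% and 92.2% of thinned cells, with medians of 10, 10 and 9 such UMIs per 1000, so nearly every cell carried them. *Fosb* showed the widest range of a single immediate-early member, at 48.6%, 56.5% and 44.8% of thinned cells. No cell type is known to lack these genes, so the part of free RNA in the droplets in these shares was not tested.

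**Figure D3:**
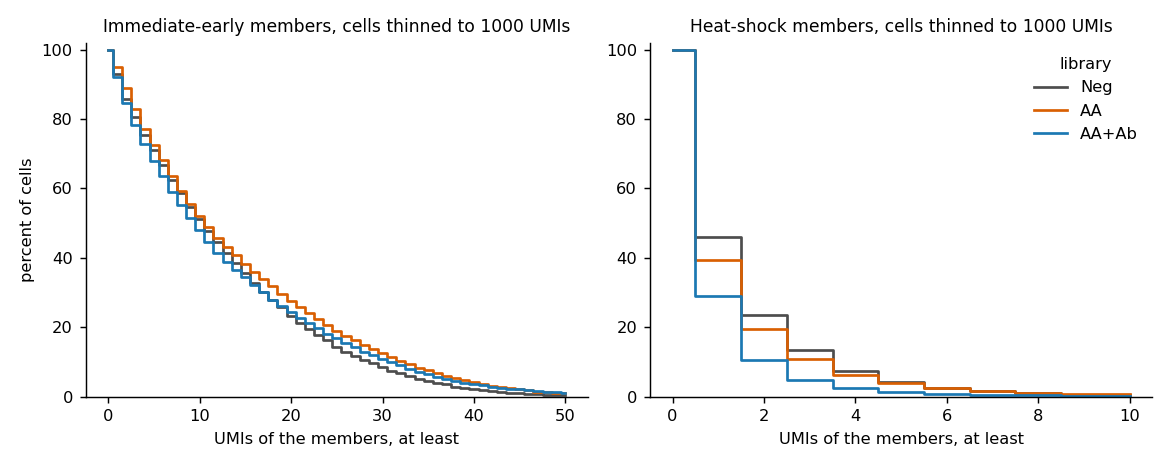
Percent of cells, thinned to 1000 UMIs each, that hold at least the number of member UMIs on the x axis, with lines for the libraries. The heat-shock lines part at 1 UMI, at 45.9%, 39.4% and 29.1% of cells in Neg, AA and AA+Ab, while the immediate-early lines start within 92.2% to 94.9%.

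The member UMIs were spread over many cells. The 10% of cells with the highest heat-shock CPM held 34.4% of the heat-shock UMIs in Neg, 40.8% in AA and 38% in AA+Ab, and without them the levels were 751.9, 578.7 and 326.7 CPM, in the same order. For the immediate-early members the corresponding cells held 22.9%, 24.8% and 26.8% of the UMIs, and the rest of the cells were at 9368.4, 10865 and 9321.2 CPM. The 2 groups of members went together only weakly in single cells. Thinned cells with few immediate-early UMIs (at most 4 in Neg and AA, 3 in AA+Ab) had 862.4, 647.6 and 322.9 heat-shock CPM, and those with many (at least 19, 21 and 19) had 1224.2, 997.1 and 655.7, with Spearman coefficients over cells of 0.09, 0.13 and 0.15. Both measures come from the same sparse cells, so these are descriptions.

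To compare like cells, the cells of the 3 libraries were clustered together without the members and without the stress genes listed below. This gave 30 clusters, of which 26 had at least 20 cells in every library. Among the 26 are the unnamed clusters 16 and 23. Cluster 16 held 312, 38 and 126 cells in Neg, AA and AA+Ab, at a median depth of 0.0505 times the library's. The heat-shock sum was lower in AA+Ab than in Neg in 26 of these 26, in 17 of them by at least 2-fold, with a median ratio of 0.44. It was also lower in AA+Ab than in AA in 26 of 26, in 13 of them by at least 2-fold, with a median ratio of 0.492. Among all genes with at least 10000 UMIs, 0.838% were lower in every one of the 26 clusters in AA+Ab than in Neg, and 1.54% in AA+Ab than in AA. *Hspa1a* was lower in 26 of 26 in both of these comparisons, and *Hspa1b* in 26 of 26 against Neg and 25 of 26 against AA. Between AA and Neg the heat-shock sum was lower in AA in 18 clusters and higher in 8, with a median ratio of 0.946, and no member was lower in all of them, which held for 0.786% of genes. In the 4 clusters with fewer cells the AA+Ab level was below AA in each, but above Neg in the satellite-like cells and in cluster 22, keratinocyte-like cells of which Neg had 1.

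Among these 26 clusters the heat-shock difference between AA+Ab and Neg was smallest in T-cell-like cells, at 732.2 CPM in Neg, 699.9 in AA and 619.6 in AA+Ab (0.846 times Neg). It was largest against Neg in gamma-delta T-cell-like cells, at 712.3, 737.7 and 174.5 CPM (0.245 times Neg). Both are lymphocytes, and their median cells had 4141.5 and 4497 UMIs in AA+Ab, so they were close in depth. Hair shaft-like cells were at 1307.4, 1271.1 and 542.9 CPM and inner root sheath-like cells, which mould the hair, at 1458.2, 1446.8 and 593.7, so AA was close to Neg there and AA+Ab far below. Fibroblast-like cells were at 1075.1, 2317.3 and 856.2 CPM, where AA was 2.16 times Neg, and melanocyte-like cells at 310.3, 578.8 and 159.3. Skeletal muscle-like cells went the other way in AA, at 547.2, 188.0 and 137.2 CPM. These 3 classes hold 39 to 133 cells in Neg and AA, so their values rest on few cells. Depth also differed, as the median melanocyte-like cell had 34069.0 UMIs in Neg and 6693.0 in AA.

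Of the 26 clusters, cluster 0, basal epidermal keratinocyte-like cells with *Itgb6* among their leading genes, had the lowest heat-shock level in Neg and AA+Ab, at 266.5 and 117.0 CPM, and with 246.1 CPM in AA it lay above the skeletal muscle-like cells there. Another basal cluster, number 6, was at 884.8, 740.4 and 355.7, so cells of 1 class differed more among themselves than libraries did within it. Across the 26 clusters the heat-shock level spanned 7.25-fold in Neg, 16.8-fold in AA and 8.85-fold in AA+Ab. The satellite-like cells, named from *Pax7*, *Myf5* and other markers of muscle stem cells, had the highest heat-shock sum of all 30 clusters in each library, at 2330.7, 6386.5 and 3023.4 CPM, but number 17, 43 and 115 cells. Their immediate-early sums of 20372, 30896 and 37650 CPM were the highest in AA and AA+Ab, while clusters 2 and 6 were higher in Neg. Their share of kept cells was 0.258%, 0.412% and 1.17%.

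**Figure D4:**
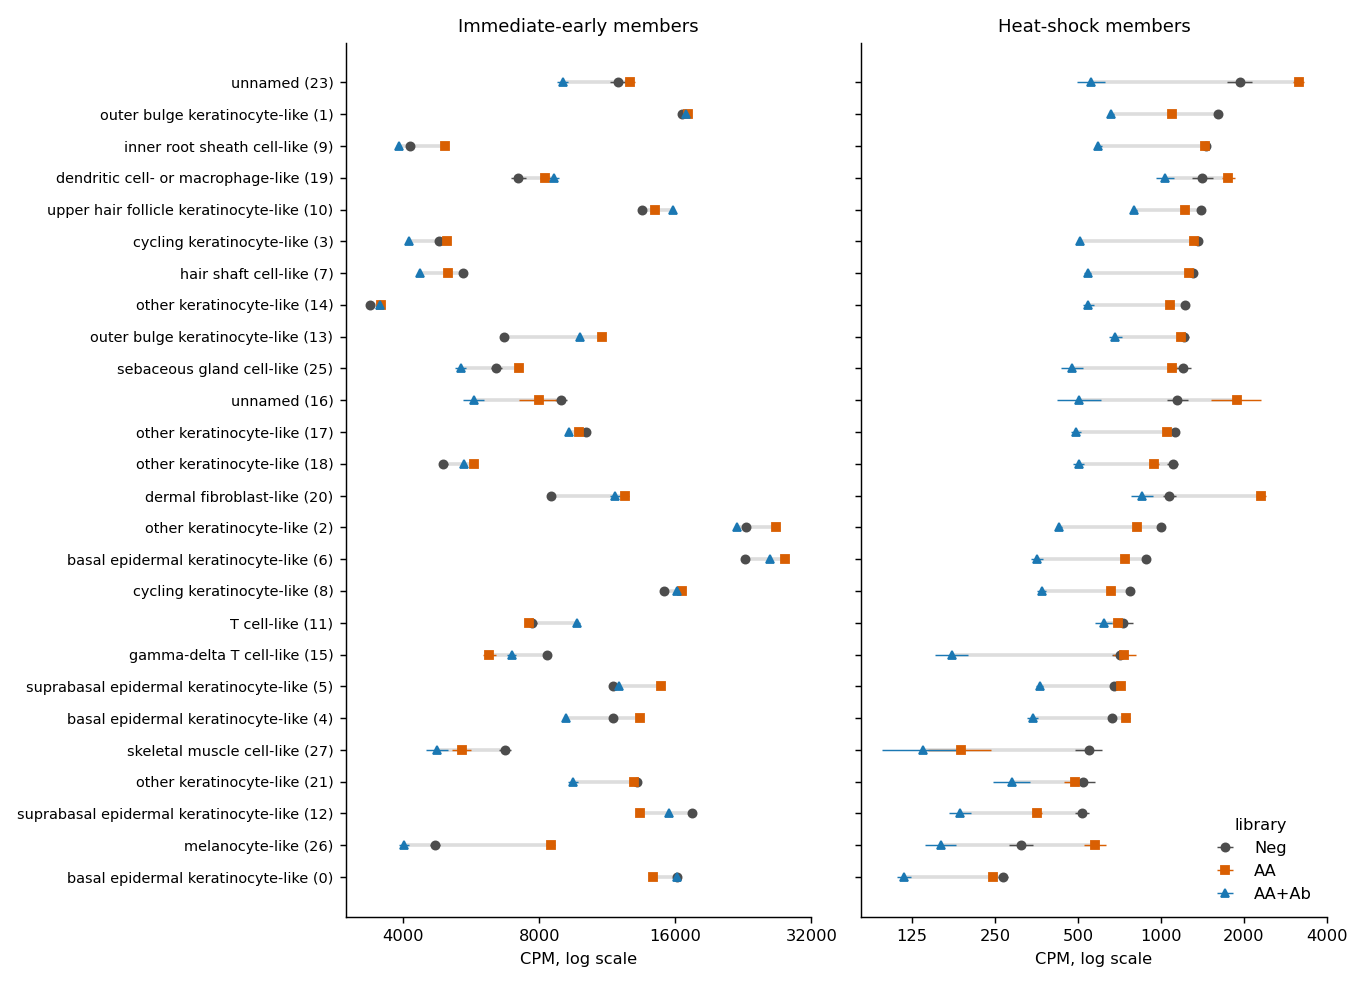
Summed immediate-early and heat-shock CPM (log axes) of the 26 clusters with at least 20 cells in every library, by library, with lines for exact 95% counting intervals, the cluster number in brackets, and clusters sorted by heat-shock CPM in Neg. AA+Ab is the lowest point of every cluster in the heat-shock panel, from 117.0 to 1035.2 CPM, and in no constant place in the immediate-early panel.

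The immediate-early sum had no such common direction. AA was above Neg in 17 of the 26 clusters and below it in 9, with a median ratio of 1.07, and none differed by 2-fold. AA+Ab was below AA in 20 and above it in 6, with a median ratio of 0.909, and below Neg in 14 and above it in 12. The clusters themselves differed far more, from 3381.9 CPM in cluster 14 to 22954 in cluster 2 in Neg, both keratinocyte-like, and by 6.79- to 7.82-fold within a library. Their order was alike in the 3 libraries, with Pearson coefficients of log2 CPM of 0.92 to 0.93 over the 26 clusters for the immediate-early sum and 0.83 to 0.85 for the heat-shock sum. Within a library the coefficients between the 2 sums over clusters were -0.20 in Neg, -0.11 in AA and -0.00 in AA+Ab. Points of 1 library share its capture and depth, so these coefficients are descriptions.

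Growing hair cells had a low immediate-early CPM, and they were also deep. The median inner root sheath-like cell had 25465.0, 20763.5 and 21755.5 UMIs in Neg, AA and AA+Ab, against 12814.0, 10982.0 and 11236.5 in basal epidermal keratinocyte-like cells. The part of depth in this contrast was not tested. Inner root sheath-like cells were at 4131.9, 4935.6 and 3904.0 CPM in Neg, AA and AA+Ab, hair shaft-like cells at 5427.6, 5023.4 and 4360.1, and the cycling cluster 3 at 4797.1, 4993.8 and 4111.9. Epidermal cells had a higher CPM, as in basal cluster 6 at 22779, 27898 and 25901 and suprabasal cluster 5 at 11663, 14836 and 12007. Among immune-like cells the T-cell-like cells were highest in AA+Ab, at 7719.3, 7577.9 and 9695.3 CPM, with *Fos* at 1294.7, 1418.4 and 2132.7 CPM. Gamma-delta T-cell-like cells were instead highest in Neg, at 8328.7, 6197.9 and 6945.7 CPM. Among the 26 clusters the AA increase was largest in melanocyte-like cells (1.8 times Neg), in outer bulge-like cluster 13 (1.65 times) and in fibroblast-like cells (1.46 times, 8472.1 to 12400 CPM). The melanocyte-like cells were unlike in depth, with a median of 34069.0 UMIs in Neg and 6693.0 in AA, and the part of depth was not tested. In the satellite-like cells, which have under 20 cells in Neg, the increase was 1.52 times. Clusters 1 and 13, both outer bulge-like, and clusters 14 and 18 had more markers of another class than of their own among their 10 leading genes. They are therefore given by number.

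The mitochondrial share of a cell, often used as a sign of damage, moved with both member groups. In Neg, immediate-early CPM was 18109 in cells with up to 2% mitochondrial UMIs, 9063.8 from 2% to 5% and 5843.1 from 5% to 10%, so it fell as the share rose. AA ran from 18521 over 10047 to 6188.6, and AA+Ab from 15140 over 6936.8 to 5291.2. AA+Ab was thus below Neg in every bin although its summed level was 1.04 times Neg, and 5752 of its 9832 cells lay in the lowest bin against 2289 of 6582 in Neg. Heat-shock CPM rose instead, from 872.4 to 1485.9 in Neg and from 677.7 to 1111.5 in AA, and was 464.3, 498.6 and 609.5 in AA+Ab. AA+Ab was therefore lowest in heat-shock CPM at each mitochondrial share. Cell class was not held constant over these bins, and its part was not tested.

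**Figure D5:**
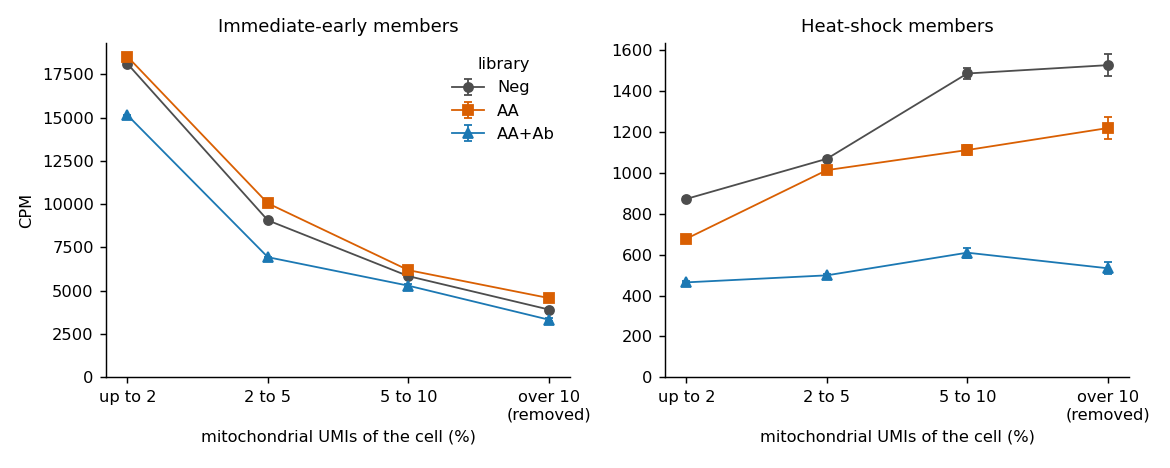
Summed immediate-early and heat-shock CPM in cells grouped by their percent of mitochondrial UMIs, by library, with exact 95% counting intervals. Immediate-early CPM falls from 18109 to 5843.1 and heat-shock CPM rises from 872.4 to 1485.9 over the 3 kept groups of Neg, and the fourth group holds the removed barcodes.

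Depth was compared in keratinocyte-like cells alone. In those with 5000 to 10000 UMIs the heat-shock sum was 969.3, 798.7 and 463.2 CPM in Neg, AA and AA+Ab, and in those with 10000 to 20000 UMIs it was 998.9, 762.0 and 429.8, so the order of the libraries was the same at like depth. The immediate-early sums were 13433, 15967 and 13572 CPM in the former cells, 16169, 15939 and 15920 in the latter and 8377.3, 8904.3 and 7852.9 in cells with more UMIs, and 9985.7, 9341.3 and 8814.8 in those with 2000 to 5000, so no library was highest at every depth. In all immune-like cells together the heat-shock sum was 805.6, 916.4 and 476.4 CPM, so AA was above Neg there and AA+Ab again lowest. By cluster, AA was above Neg in macrophage-like cluster 19 (1755.4 against 1413.6 CPM), in gamma-delta T-cell-like cells and in neutrophil-like cells. It was below Neg in T-cell-like cells (699.9 against 732.2), the largest of these clusters in AA, and in cluster 29.

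Other genes of the same responses were compared as 6 lists. Over all genes, 3.17% were at least 2-fold higher and 3.71% lower in AA than in Neg. These shares were 2.03% and 3.64% in AA+Ab against Neg, and 2.58% and 4.09% in AA+Ab against AA. The median log2 ratios over all genes were -0.06, -0.06 and 0.01 in the same order. In lists this short, a count of 1 or 2 genes can lie near these shares. Of 27 counted other immediate-early factors, 1 was at least 2-fold higher in AA than in Neg and none lower, and the median log2 ratio was 0.28, against -0.06 over all genes. The gene past the fold was *Fosl1*, which encodes a Fos protein of migrating keratinocytes, at 244.6 CPM in Neg, 602.0 in AA and 215.6 in AA+Ab. It was above Neg in AA both in cluster 0, which held 614 cells in Neg and 1819 in AA (1249.2 against 1855.9 CPM), and in all other cells (168.1 against 372.1). *Klf2* (32.7, 60.8 and 55.0 CPM) and *Cebpd* (39.8, 66.5 and 90.1) followed, and *Id3* (456.2, 363.3 and 365.3), *Id2* (100.7, 82.0 and 86.8) and *Myc* (84.3, 68.8 and 82.8) were at the other end. In AA+Ab against Neg, 1 of 27 was higher, *Cebpd*, and none lower, with a median of -0.07. In AA+Ab against AA, 3 were lower, *Fosl1* and the orphan nuclear receptors *Nr4a1* (464.2 to 220.1 CPM) and *Nr4a3* (41.1 to 17.0), with a median of -0.19. *Nr4a1* was under 2-fold lower both in cluster 0 (991.0 to 708.0 CPM) and in all other cells (367.7 to 187.3). *Fosl1* was under 2-fold lower in cluster 0 (1855.9 to 1162.4) but past it in all other cells (372.1 to 151.9). *Nr4a3* was past it in both (73.1 to 32.5 and 35.2 to 16).

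Of 16 feedback inhibitors, which switch the same signals off, 2 were at least 2-fold higher in AA than in Neg and none lower, with a median log2 ratio of 0.24. These were the MAP kinase phosphatases *Dusp5*, at 25.2, 53.1 and 20.4 CPM in Neg, AA and AA+Ab, and *Dusp6*, at 42.7, 88.8 and 43.4. In cluster 0, which held 614, 1819 and 744 cells, *Dusp5* was at 103.4, 153.3 and 61.2 CPM and *Dusp6* at 190.6, 288.9 and 184.2. In all other cells *Dusp5* was at 19.3, 34.7 and 17.7 CPM and *Dusp6* at 31.4, 52.1 and 33.9. Neither was 2-fold higher in AA than in Neg in either part, and the part of the share of cluster 0 was not tested. Over all cells, both phosphatases were at least 2-fold lower again in AA+Ab than in AA, where the median of the list was -0.18. Within the 2 parts, this held only for *Dusp5* in cluster 0. None of the 16 passed in AA+Ab against Neg, with a median of 0.01. *Tnfaip3*, which restrains NF-κB, was at 118.0, 167.0 and 119.6 CPM. *Spry2* (18.5, 13.8 and 18.3), *Spry4* (2.32, 1.77 and 2.26) and *Rgs2* (36.7, 33.4 and 34.4) had the smallest AA over Neg ratios.

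The other chaperones did not all follow *Hspa1a* and *Hspa1b*. Of 24 counted, none passed the fold in AA against Neg (median log2 ratio 0.12). In AA+Ab, 2 were lower than in Neg (median -0.06, the same as over all genes) and 1 was lower than in AA (median -0.17). *Hsph1*, the HSP110 partner of HSP70, was the gene that passed in both, at 97.8 CPM in Neg, 121.8 in AA and 46.9 in AA+Ab. The other one was *Hspa1l*, with 82 UMIs in Neg and 48 in each of the AA and AA+Ab libraries. *Dnajb1*, the HSP40 that heat-shock factor 1 also induces, was at 710.2, 1193.5 and 679.5 CPM, so it was highest in AA where the HSP70 pair was below Neg. *Hspb8* (54.4, 81.4 and 66.1) and *Bag3* (26.2, 38.5 and 22.8) were also highest in AA, and *Ahsa1* (56.2, 47.1 and 54.2) and *Fkbp4* (173.9, 146.9 and 159.9) lowest there. *Hspa8*, the constitutive HSP70, differed little at 1316.9, 1416.9 and 1167.0 CPM.

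The remaining 3 lists hardly passed the fold. Of 20 genes of the endoplasmic reticulum and integrated stress responses none passed in any comparison, with medians of 0.12, 0.03 and -0.09 for AA over Neg, AA+Ab over Neg and AA+Ab over AA. *Atf4* (191.5, 262.9 and 169.9 CPM in Neg, AA and AA+Ab), *Sesn2* (9.86, 13.1 and 8.30) and *Xbp1* (30.4, 40.0 and 31.8) were highest in AA, while *Chac1* (0.587, 0.383 and 0.351), *Ddit4* (29.8, 24.7 and 24.5) and *Atf5* (25.3, 21.4 and 26.7) had the smallest AA over Neg ratios. Of 14 p53 response genes none passed, with medians of 0.23, 0.03 and -0.08. *Plk2* (70.6, 111.6 and 62.9), *Mdm2* (46.3, 66.4 and 48.1) and *Cdkn1a* (253.9, 355.5 and 269.9) were again highest in AA, and *Trp53inp1* (91.2, 64.2 and 113.1), *Bax* (85.4, 67.8 and 85.9) and *Zmat3* (11, 9.76 and 11.1) lowest in it. Of 14 oxidative stress genes 1 passed, the cystine transporter *Slc7a11*, which was higher in AA+Ab than in AA (5.74, 3.74 and 9.54 CPM), and the medians were -0.18, -0.05 and 0.13. The metallothioneins *Mt1* (5072.9, 2793.3 and 3811.9) and *Mt2* (1896.3, 1195.5 and 1366.3), with *Gsta4* (4.45, 2.54 and 3.54), had the smallest AA over Neg ratios, and *Srxn1* (2.21, 3.33 and 2.10), *Sqstm1* (67.4, 98.8 and 70.9) and *Osgin1* (2.37, 2.47 and 1.87) the largest.

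Among 13090 genes outside the members and lists, those whose level over 49 class-by-library sums was most like the immediate-early sum were *Fry*, *Dlg2*, *Cav1*, *Tmbim1* and *Adarb1*, with Pearson coefficients of log2(CPM + 5) of 0.86, 0.86, 0.85, 0.84 and 0.83. For the heat-shock sum they were *Fgfr1*, *Garem1*, *Stau1*, *Klhl26* and *Spry1*, at 0.81, 0.75, 0.72, 0.71 and 0.70. Over the libraries as wholes these genes did not share the heat-shock order, as *Fgfr1* was at 35.1, 46.0 and 34.3 CPM in Neg, AA and AA+Ab. The sums share 3 libraries and the same classes, so these coefficients are descriptions of class levels.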

How the data were processed

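The dorsal skin of 3 groups of mice (Neg, AA, AA+Ab) was measured by 3′ droplet single-cell RNA sequencing, with 1 library per group. The deposited matrices give, for each barcode, unnormalized UMI counts by gene, which the authors made with Cell Ranger 7.2.0 on mm10. FastQC 0.11.7 is named in the submitters' processing notes, and the annotation release is not given in the sources used here. The deposited gene and barcode lists hold names only.

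Cells were kept with at most 10% mitochondrial UMIs and at least 200 genes. For CPM, the UMIs of a member over a set of cells were set against the total of those cells. Intervals at 95% were exact Poisson for CPM, Clopper-Pearson for shares and exact conditional for ratios. For fold counts, a gene without a UMI in a library was set to 3 counts. Cells of the 3 libraries were clustered together (2000 variable genes without members and lists, 30 principal components, 20 neighbours, Leiden at resolution 0.8). A cluster was named when at least 3 markers, and 50% of its list, were found in 25% of its cells at 2 times the CPM of other cells with 5 added, or as other keratinocyte-like cells when 50% of its cells had each of 6 keratinocyte markers. A cluster stayed unnamed when classes tied, when its cells had a median depth below 0.1 times the library's, or below 0.333 times with no own marker among its 10 leading genes. The naming rules were settled with the clusters in view. Doublets were kept, and were removed as an alternative by scores against 2 simulated doublets per cell at 0.8% per 1000 barcodes.

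The members, the 116 genes of the 6 lists and the comparisons were chosen with earlier results of these data known. The list genes named are those at the 2 ends of each list by AA over Neg ratio, 3 at each end. The genes most like the members needed at least 500 UMIs and are the 5 with the highest correlation. The genes past the fold in any comparison, and *Hspa8*, were named after their values were seen. The script for ratios was tested on simulated counts. Alternatives changed the cell filters, the denominator, the weight of cells and classes, the clustering, the minimum of UMIs and the fold. Promoters were RefSeq's, and positions came from GENCODE vM21, both of the build of the files. Python 3.11.15, numpy 2.4.6, scipy 1.17.1, pandas 2.3.3, scikit-learn 1.9.0, igraph 0.11.9, leidenalg 0.10.2 and matplotlib 3.10.9 were used.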

Additional observations from a re-analysis of the deposited data

How the results depend on the processing

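The summed members kept their direction in all 3 comparisons under the 10 alternatives to the filters, weights and denominator, one of which, leaving out barcodes shared by libraries, was chosen after seeing the data. Log2 ratios are given in the order AA over Neg, AA+Ab over Neg and AA+Ab over AA. The immediate-early values were 0.23, 0.03 and -0.20 with at most 5% mitochondrial UMIs, 0.24, 0.05 and -0.19 with no such limit, 0.20, 0.04 and -0.16 without doublets, and 0.20, 0.06 and -0.14 without mitochondrial, ribosomal protein and hemoglobin UMIs. They were 0.16, 0.02 and -0.13 as the mean CPM of cells, 0.15, 0.03 and -0.12 in thinned cells, 0.14, 0.03 and -0.11 with classes weighted as in Neg, and 0.23, 0.04 and -0.19 in keratinocyte-like cells. The heat-shock values in the same order of settings were -0.21, -1.08 and -0.87, then -0.24, -1.13 and -0.88, then -0.21, -1.09 and -0.88, then -0.28, -1.11 and -0.83. The latter settings gave -0.23, -1.04 and -0.81, then -0.20, -1.0 and -0.80, then -0.13, -1.18 and -1.05, then -0.30, -1.16 and -0.86. At a clustering resolution of 0.4 the median immediate-early log2 ratio of AA+Ab over Neg over clusters was 0.02, against -0.07. With at least 100 UMIs, 348 genes were at least 2-fold higher and 224 lower in AA than in Neg, 157 and 216 in AA+Ab against Neg, and 190 and 448 in AA+Ab against AA, compared with 618 and 722, 396 and 709, and 503 and 797. At a fold of 1.5 they were 1478 and 1916, 927 and 1844, and 1338 and 2027. Of the single members, *Atf3* changed sign in AA+Ab over Neg in 2 settings and *Egr1* in 1, at 0.00 in thinned cells. The causes were not tested. No paired analysis was possible because each group has 1 library, and for the same reason no replicate could be left out. Depth limits the small classes, such as the satellite-like cells with 17 cells in Neg.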
